A study of Mus musculus with 24 samples.

Results

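The 4 Notch receptors of the mouse (Notch1, Notch2, Notch3 and Notch4) and 4 of their membrane-bound ligands (Dll1, Dll4, Jag1 and Jag2) were followed by RNA sequencing in 24 libraries. They were taken by gene symbol, and all 8 were found among the 35727 gene identifiers of the count table and passed its filter on low counts. Notch1 to Notch4 and Jag1 reached the filter level of 0.418 CPM (counts scaled to library size) in all 24 libraries, Jag2 in 19, Dll1 in 15 and Dll4 in 13. The libraries came from mouse heart cells in 4 conditions: control cells, which the labels call fibroblast, and cells named Erg, Sox17 or SEG, which the labels call iEC and the design text calls aiECs. Each condition was harvested at day 3 and at day 7 with 3 libraries per group, and every group was grown in EGM2, a growth medium for endothelial cells. The stated aim was to follow how the cells took on an endothelial character. The labels give no strain, age or allele, do not say how Erg or Sox17 was introduced or what the control cells received, and do not spell out SEG. Separate cultures are not stated for the libraries of any group, so the p-values below rest on a spread that may be purely technical.

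Notch receptors are cleaved after binding a ligand on a neighbouring cell, and the released intracellular part enters the nucleus, where it turns the DNA-binding protein RBPJ from a repressor into an activator. The ligands of the Delta-like and Jagged families act on the same receptors, and Fringe enzymes, which add sugars to the receptor, shift the balance towards Delta-like ligands. In vessels, Notch signalling is known for arterial identity and for the choice between tip and stalk cells, with Notch1, Notch4, Dll4 and Jag1 as the best studied endothelial members and Notch3 as the receptor of vascular smooth muscle cells and pericytes.

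Dll4 was present in SEG cells and near 0 elsewhere: it averaged 102 ± 2.85 CPM at day 3 and 265 ± 3.38 CPM at day 7 in SEG (SD, n = 3), and no library of another group held more than 1.13 CPM. Jag2 showed the converse for Erg, with 126 CPM at day 3 in Erg cells, 1.16 CPM in SEG cells and 0.704 CPM in Sox17 cells. Jag1, Notch1 and Notch4 had their highest group means in SEG and the next highest in Sox17 at both days. Notch3 was high in Erg and SEG cells, Notch2 was lower than in control in all conditions except SEG at day 7, and Dll1 rose in Erg cells and fell in Sox17 and SEG cells. CPM values are counts scaled to library sizes adjusted by TMM (trimmed mean of M-values), and a gene is called changed at an adjusted p under 0.05 in edgeR's quasi-likelihood test.

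The promoter sequences of 3 members are shown because these genes moved differently across the conditions: Dll4 was high in SEG alone, Notch4 rose in Sox17 and SEG, and Dll1 rose in Erg and fell in Sox17 and SEG. Each is the stretch of 250 bases before a RefSeq transcription start in build GRCm38.p6, written 5′ to 3′ on the strand of the gene. Capitals mark matches, on either strand, to the SOX core ACAAT, the ETS cores AGGAAG and CGGAAG, the RBPJ core TGGGAA and the E-box CACGTG that HEY and HES proteins can bind. Erg belongs to the ETS family and Sox17 to the SOX family of transcription factors.
Dll4, chr2:119325534-119325783, plus strand: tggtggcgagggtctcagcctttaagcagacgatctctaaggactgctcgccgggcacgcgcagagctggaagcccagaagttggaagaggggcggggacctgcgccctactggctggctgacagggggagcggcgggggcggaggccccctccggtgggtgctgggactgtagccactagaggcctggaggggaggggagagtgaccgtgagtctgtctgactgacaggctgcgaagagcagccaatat
Notch4, chr17:34564045-34564294, plus strand: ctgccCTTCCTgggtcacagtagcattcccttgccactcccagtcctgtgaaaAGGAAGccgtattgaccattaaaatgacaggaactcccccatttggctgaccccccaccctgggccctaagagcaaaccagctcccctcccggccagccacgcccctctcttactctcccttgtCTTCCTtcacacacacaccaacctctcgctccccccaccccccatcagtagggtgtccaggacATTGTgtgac
Dll1, second of 2 starts, chr17:15376933-15377182, minus strand: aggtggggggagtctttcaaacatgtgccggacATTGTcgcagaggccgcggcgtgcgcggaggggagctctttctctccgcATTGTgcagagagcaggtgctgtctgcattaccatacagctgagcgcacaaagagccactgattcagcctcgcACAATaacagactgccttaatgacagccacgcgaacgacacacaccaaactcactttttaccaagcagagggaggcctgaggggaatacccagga
The Dll4 window held no match to any of these letters. The Notch4 window held 3 matches to AGGAAG and 1 to ACAAT. The Dll1 window held 3 matches to ACAAT. Among 32851 promoter windows of the same length, ACAAT was found in 27.7%, AGGAAG in 29.5%, CGGAAG in 13.6%, TGGGAA in 21.6% and CACGTG in 6.02%. The other members' windows held 1 match at most: ACAAT before Jag1, CGGAAG before Notch2, AGGAAG before the first start of Dll1, and none before Notch1, Notch3 or Jag2. A match here is a run of letters and not a site.

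In build mm10 the genes lie on the following chromosomes, and their counts are given per gene. Notch1 (ENSMUSG00000026923) lies at chr2:26457903-26516663 on the minus strand, Notch2 (ENSMUSG00000027878) at chr3:98013527-98150361 on the plus strand, Notch3 (ENSMUSG00000038146) at chr17:32120820-32166852 on the minus strand and Notch4 (ENSMUSG00000015468) at chr17:34564268-34588503 on the plus strand. Dll1 (ENSMUSG00000014773) lies at chr17:15367354-15376872 on the minus strand, Dll4 (ENSMUSG00000027314) at chr2:119325784-119335962 on the plus strand, Jag1 (ENSMUSG00000027276) at chr2:137081456-137116644 and Jag2 (ENSMUSG00000002799) at chr12:112907819-112929776, both on the minus strand. Exons of Notch1, Notch2, Notch3, Dll1 and Dll4 share bases with 6 other annotated genes, and whether the counting used strand is not given in the sources used here, so reads from the shared bases cannot be told apart.

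Total counts ranged from 18794422 to 44586227 per library, and 14804 genes passed the filter on low counts. The labels were checked on the named factors. At day 3 and day 7, Erg averaged 7090 and 5140 CPM in Erg cells and 1270 and 961 CPM in SEG cells. Elsewhere its group means were at most 0.0378 CPM. Sox17 averaged 1610 and 1080 CPM in Sox17 cells and 1010 and 699 CPM in SEG cells, and at most 0.254 CPM elsewhere. Both factors thus had lower means in SEG than in the cells named for them. For Sox17 the libraries of Sox17 and SEG cells overlapped at day 7. Reads from an introduced copy and from the cell's own gene cannot be told apart. Of 13 endothelial markers, a list that includes Erg and Sox17, 3 and 4 exceeded 1 CPM in control cells at day 3 and day 7, 10 or 11 in Erg, 8 or 9 in Sox17 and 12 or 13 in SEG. A marker over 1 CPM was not always above control. Tek averaged 18.3 and 24.5 CPM in control, 13.7 and 10.6 in Erg, 18.8 and 8.68 in Sox17 and 38.7 and 25.3 in SEG. Vwf averaged 1.05 CPM in Erg at day 7, beside 1.61 in control. Pecam1, an endothelial adhesion protein, averaged 69.7 and 200 CPM in SEG but at most 2.93 CPM in the Erg and Sox17 groups also labelled iEC, and Cldn5, a tight junction protein of endothelium, had no count in any Sox17 library. Some other markers of the list were also high in Erg or Sox17 cells. Kdr averaged 377 and 148 CPM in Sox17, beside 288 and 235 in SEG. Esam averaged 84.7 and 66.9 CPM in Erg, beside 13.2 and 20.5 in SEG. Cdh5 averaged 171 and 135 CPM in Sox17, beside 645 and 901 in SEG and at most 0.519 in control. All 10 fibroblast markers exceeded 1 CPM in every group, but their levels differed. At day 7, Dcn averaged 1270 CPM in control and 69 in SEG, Lum 218 and 3.03, and Dpt 426 and 6.89. Col1a1 went the other way, with 7780 CPM in control and 10700 in SEG, and the remaining markers of the list had lower means in SEG. In such bulk samples, fewer cells of a type and less RNA per cell cannot be told apart. Replicate 1 of Sox17 and of SEG at day 7 stood apart, with 7.47% and 5.17% of counts in ribosomal protein genes against 3.01% to 4.73% in the other 22 libraries. In these 2 libraries Notch1, Notch2, Notch3 and Jag1 were at 0.235 to 0.681 times the mean of replicates 2 and 3, while Notch4, Dll4 and Jag2 were at 0.864 to 1.11 times. Values without both are given below where a call of a receptor or ligand differs.

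**Figure D1:**
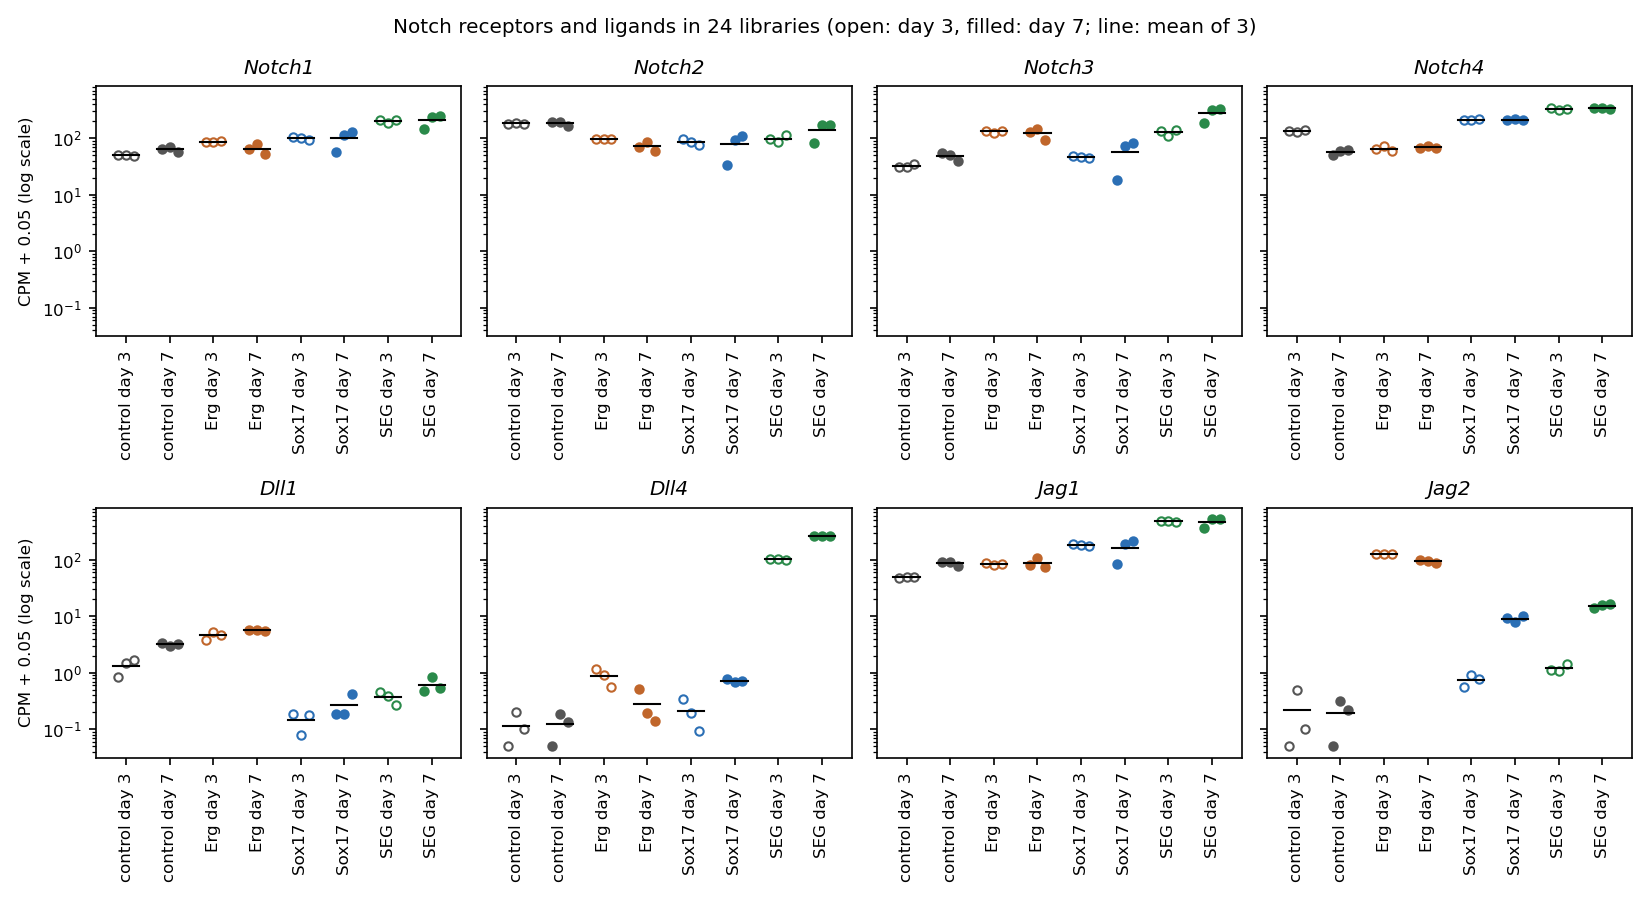
Level of each receptor and ligand in every library, as CPM plus 0.05 on a log scale, by condition and day; open points are day 3, filled points day 7, and the line is the mean of 3 libraries. Dll4 lies at 99.2 CPM or more in the 6 SEG libraries and at 1.13 CPM or less in the other 18, and Jag2 lies highest in the 6 Erg libraries.

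Against control at day 3, all 8 genes were called in Erg cells, 6 higher and 2 lower. Of all genes tested, 46.1% were called, 22.6% higher and 23.5% lower. In Sox17 cells 4 were higher and 2 lower (40.4% of all genes, 20.8% higher and 19.6% lower), with Notch3 and Dll4 not called. In SEG cells 6 were higher and 2 lower (40.2% of all genes, 20.0% higher and 20.2% lower). The median log2 change of the 8 genes was 1.32 in Erg, 0.83 in Sox17 and 2.0 in SEG, beside medians of -0.01, 0.01 and 0.01 over all genes tested. At day 7, 4 genes were higher and 1 lower in Erg cells, where 48.5% of all genes were called, 23.7% higher and 24.8% lower. In Sox17 cells 5 were higher and 2 lower, where 54.5% of all genes were called, 29.5% higher and 25.0% lower. In SEG cells 6 were higher and 1 lower, where 44.3% of all genes were called, 22.5% higher and 21.8% lower. The medians at day 7 were 0.54, 0.78 and 2.49, beside -0.02, 0.05 and 0.01. These comparisons share the control libraries of each day. With only the Sox17 and control libraries of day 7 in the fit, Notch1, Notch2 and Jag1 were not called (edgeR adjusted p = 0.147, 0.0658 and 0.0935).

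**Figure D2:**
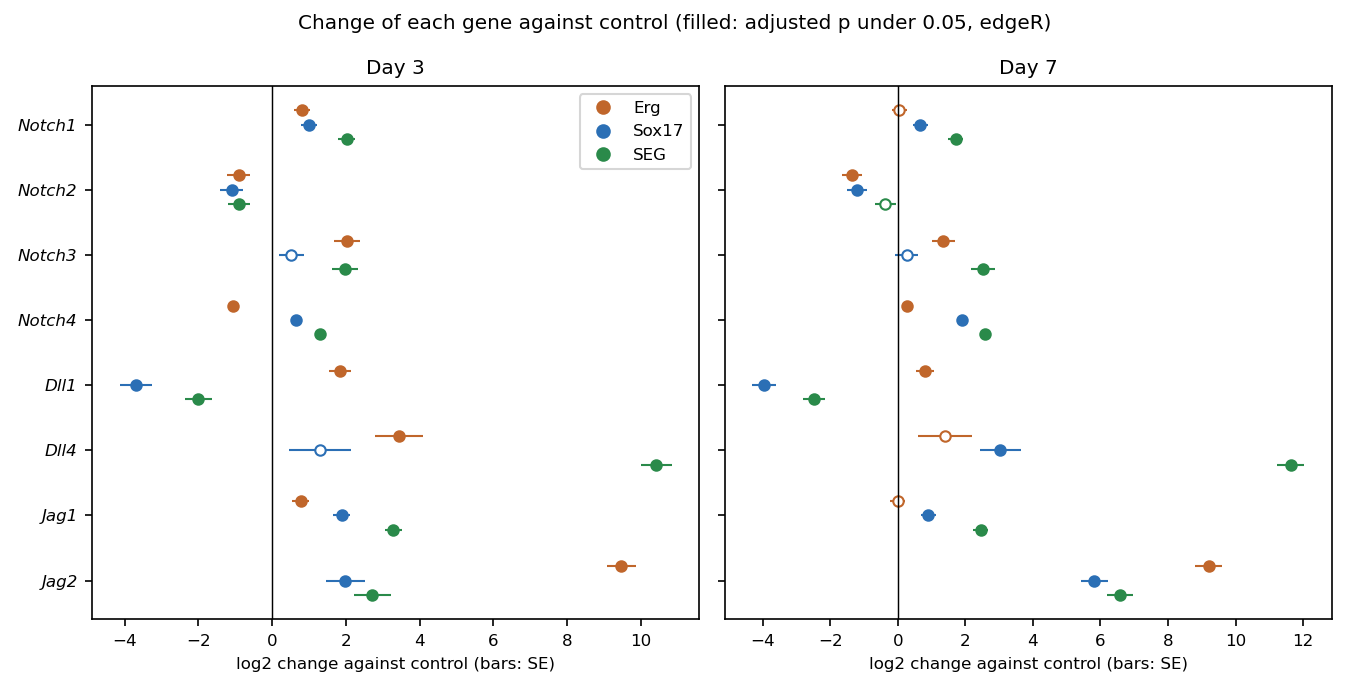
Log2 change of each gene against control at day 3 (left) and day 7 (right) for Erg, Sox17 and SEG, with the standard error of edgeR's quasi-likelihood fit; filled points were called at an adjusted p under 0.05. The points spread widest for Dll4, which reached 10.42 and 11.63 in SEG, and for Jag2, which reached 9.47 and 9.20 in Erg.

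Notch1, the receptor most studied in arterial endothelium, held 51.1, 51.5 and 48.4 CPM in the control libraries at day 3 and 65.4, 69.3 and 57.0 CPM at day 7. SEG libraries held 210, 188 and 216 CPM at day 3 and 146, 236 and 246 CPM at day 7. Every SEG library thus lay above every control library of its day. The log2 change in SEG was 2.02 ± 0.23 (SE) at day 3 and 1.71 ± 0.22 at day 7 (edgeR's quasi-likelihood test, adjusted p = 3.83e-07 and 2.43e-06). Sox17 libraries held 105, 101 and 95.1 CPM at day 3 and 58.2, 116 and 131 CPM at day 7, and the low value at day 7 is the library that stood apart and the only Sox17 value within the control range. Sox17 changed it by 0.99 ± 0.22 at day 3 and 0.67 ± 0.22 at day 7 (edgeR adjusted p = 0.00106 and 0.0143). The call at day 7 was lost without control replicate 3 (0.59, edgeR adjusted p = 0.06) or without Sox17 replicate 3 (0.49, edgeR adjusted p = 0.0665). In Erg cells Notch1 held 85.4 to 89.1 CPM at day 3, a change of 0.80 ± 0.22 (edgeR adjusted p = 0.00566), and 53.0 to 79.3 CPM at day 7, which overlapped the control (0.04 ± 0.22, edgeR adjusted p = 0.903).

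Notch2, a receptor of many cell types, had its highest levels in control cells: 181, 190 and 183 CPM at day 3 and 198, 192 and 164 CPM at day 7. At day 3 it held 97.4 to 98.4 CPM in Erg, 76.0 to 95.8 CPM in Sox17 and 85.7 to 113 CPM in SEG, all below the control libraries. The changes were -0.91 ± 0.30, -1.10 ± 0.30 and -0.90 ± 0.30 (edgeR's quasi-likelihood test, adjusted p = 0.0168, 0.00591 and 0.0213). The call in SEG at day 3 was lost without control replicate 2, SEG replicate 1 or SEG replicate 2, with adjusted p of 0.0521, 0.0572 and 0.0834. At day 7 Notch2 held 59.6 to 87.8 CPM in Erg (-1.36 ± 0.30, edgeR adjusted p = 0.000966) and 34.1, 94.6 and 110 CPM in Sox17 (-1.22 ± 0.30, edgeR adjusted p = 0.002). SEG libraries at day 7 held 82.8, 171 and 174 CPM, the first being the library that stood apart, and overlapped the control (-0.37 ± 0.30, edgeR adjusted p = 0.334).

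Notch3, the receptor of mural cells, held 31.1, 31.1 and 35.6 CPM in control at day 3 and 55.1, 50.4 and 40.1 CPM at day 7. In Erg it held 138, 127 and 137 CPM at day 3 and 128, 148 and 92.2 CPM at day 7. In SEG it held 135, 112 and 139 CPM at day 3 and 190, 315 and 331 CPM at day 7. Both conditions lay above control in every library, and SEG at day 7 lay above every other group. The changes were 2.04 ± 0.35 and 1.34 ± 0.34 in Erg and 1.98 ± 0.35 and 2.52 ± 0.35 in SEG at day 3 and day 7 (edgeR's quasi-likelihood test, adjusted p from 6.32e-06 to 0.0031). Sox17 libraries held 48.6, 46.6 and 45.0 CPM at day 3 and 18.4, 72.1 and 84.3 CPM at day 7. The day 3 values lay just above the control libraries of that day, and the day 7 values overlapped them. Neither day was called in Sox17 (0.52 ± 0.34 and 0.26 ± 0.34, edgeR adjusted p = 0.255 and 0.528). Without both libraries that stood apart, Notch3 in Sox17 at day 7 was called higher than control (0.73, edgeR adjusted p = 0.00013), and day 3 was called when only control and Sox17 libraries were fitted (0.52, edgeR adjusted p = 4.94e-05).

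Notch4, a receptor largely restricted to endothelium in the body, was already at 138, 129 and 139 CPM in control cells at day 3 and was lower at day 7, at 50.4, 60.1 and 61.6 CPM. Sox17 libraries held 209, 210 and 221 CPM at day 3 and 214, 218 and 214 CPM at day 7. SEG libraries held 339, 317 and 338 CPM at day 3 and 348, 339 and 336 CPM at day 7. SEG, Sox17 and control did not overlap at either day, and the libraries that stood apart were not low for this gene. The change in Sox17 was 0.66 ± 0.08 at day 3 and 1.91 ± 0.08 at day 7, and in SEG 1.29 ± 0.08 and 2.57 ± 0.08 (edgeR's quasi-likelihood test, adjusted p from 1.18e-15 to 6.08e-07). In Erg it held 59.1 to 72.2 CPM at day 3, below control (-1.06 ± 0.08, edgeR adjusted p = 9.06e-10), and 67.6 to 72.7 CPM at day 7, above control (0.28 ± 0.08, edgeR adjusted p = 0.0051). The sign against control thus differed between days in Erg cells, while the Erg level itself did not change by the test (0.10 ± 0.08, edgeR adjusted p = 0.35).

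Dll1, a Delta-like ligand, was rare in all groups. It held 0.781, 1.44 and 1.64 CPM in control at day 3 and 3.40, 3.00 and 3.26 CPM at day 7. Erg libraries held 3.84, 5.27 and 4.73 CPM at day 3 and 5.64, 5.72 and 5.55 CPM at day 7, above every control library of the day. Sox17 libraries held 0.135, 0.0294 and 0.126 CPM at day 3 and 0.136, 0.136 and 0.378 CPM at day 7, from 9 and 21 counts in all. SEG libraries held 0.409, 0.339 and 0.224 CPM at day 3 and 0.430, 0.779 and 0.489 CPM at day 7. Both conditions lay below every control library of the day. The changes were 1.84 ± 0.29 and 0.81 ± 0.27 in Erg, -3.70 ± 0.43 and -3.96 ± 0.35 in Sox17, and -2.0 ± 0.37 and -2.49 ± 0.32 in SEG (edgeR's quasi-likelihood test, adjusted p from 9.52e-09 to 0.0183). Without control replicate 2 the Erg call at day 7 was lost (0.76, edgeR adjusted p = 0.0644). The ratio of pooled counts in Sox17 to control was 0.073 at day 3, with an exact 95% interval of 0.0321 to 0.146 that covers counting error only.

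Dll4, the Delta-like ligand of arterial and tip cells, held 0, 0.149 and 0.0512 CPM in control at day 3 and 0, 0.136 and 0.0846 CPM at day 7, from 4 and 5 counts. In SEG it held 105, 102 and 99.2 CPM at day 3 and 266, 261 and 268 CPM at day 7. No other group came near these values. Erg libraries held 1.13, 0.879 and 0.519 CPM at day 3 and 0.462, 0.147 and 0.0914 CPM at day 7. Sox17 libraries held 0.297, 0.147 and 0.0421 CPM at day 3 and 0.726, 0.627 and 0.680 CPM at day 7. These traces were called against control in Erg at day 3 (3.43 ± 0.65, edgeR's quasi-likelihood test, adjusted p = 0.000217) and in Sox17 at day 7 (3.03 ± 0.61, edgeR adjusted p = 0.000299). They were not called in Erg at day 7 (1.40 ± 0.80, edgeR adjusted p = 0.155) or in Sox17 at day 3 (1.30 ± 0.84, edgeR adjusted p = 0.247). The ratio of pooled counts in SEG to control was 1470 at day 3 (exact 95% interval 572 to 5380) and 3350 at day 7 (1440 to 10300), wide because the control held so few counts. Without control replicate 2 the change at day 3 was 4.66 in Erg and 11.66 in SEG, and without that of day 7 the change at day 7 was 3.69 in Sox17 and 12.28 in SEG (edgeR adjusted p from 8.24e-13 to 0.000862). Against Erg, SEG was higher by 7.00 ± 0.31 and 10.23 ± 0.36, and against Sox17 by 9.13 ± 0.36 and 8.60 ± 0.32, on the log2 scale at day 3 and day 7 (edgeR adjusted p from 1.15e-14 to 2.40e-13). Without Erg replicate 1 of day 7 the difference from Erg at that day was 11.13, and without Sox17 replicate 1 of day 3 the difference from Sox17 at that day was 9.88.

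Jag1, the Jagged ligand expressed by both endothelium and mesenchyme, held 48.7, 48.8 and 50.8 CPM in control at day 3 and 92.5, 91.0 and 77.6 CPM at day 7. Sox17 libraries held 193, 183 and 173 CPM at day 3 and 84.2, 191 and 212 CPM at day 7. SEG libraries held 485, 491 and 475 CPM at day 3 and 362, 533 and 532 CPM at day 7. SEG lay above all other groups at both days, and Sox17 lay above control except in the library that stood apart. The changes were 1.89 ± 0.23 and 0.90 ± 0.22 in Sox17 and 3.29 ± 0.24 and 2.45 ± 0.23 in SEG (edgeR's quasi-likelihood test, adjusted p from 8.95e-10 to 0.00213). Erg libraries held 82.1 to 87.1 CPM at day 3 and 73.8 to 106 CPM at day 7. That was above control at day 3 (0.78 ± 0.23, edgeR adjusted p = 0.0075) and overlapped it at day 7 (-0.01 ± 0.22, edgeR adjusted p = 0.977).

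Jag2, the second Jagged ligand, held 0, 0.446 and 0.0512 CPM in control at day 3 and 0, 0.273 and 0.169 CPM at day 7, from 10 counts at each day. Erg libraries held 126, 128 and 125 CPM at day 3 and 101, 96.2 and 88.3 CPM at day 7. Sox17 libraries held 0.514, 0.883 and 0.716 CPM at day 3 and 9.33, 7.88 and 10.1 CPM at day 7. The Erg values were far above all others, and Sox17 lay just above the control libraries at day 3 and further above them at day 7. SEG libraries held 1.07, 1.02 and 1.38 CPM at day 3 and 14.0, 16.1 and 16.3 CPM at day 7, above every Sox17 library of the same day and below every Erg library. Against control, Jag2 was higher by 9.47 ± 0.39 and 9.20 ± 0.39 in Erg, by 1.99 ± 0.54 and 5.81 ± 0.40 in Sox17 and by 2.72 ± 0.51 and 6.58 ± 0.39 in SEG (edgeR's quasi-likelihood test, adjusted p from 1.61e-13 to 0.00587). SEG held less Jag2 than Erg by -6.75 ± 0.31 at day 3 and -2.62 ± 0.24 at day 7 (edgeR adjusted p = 3.73e-13 and 1.55e-08). The ratio of mean CPM in SEG to that in Erg was 0.00918 at day 3. The changes against control at day 3 rest on replicate 2, which held 9 of the 10 control counts: without it they were 11.97 in Erg, 4.48 in Sox17 and 5.21 in SEG (edgeR adjusted p from 3.21e-13 to 5.45e-05). Without control replicate 2 of day 7 they were 9.88, 6.49 and 7.26 at that day.

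SEG cells were then compared with each other condition directly. Mean CPM of Erg and of Sox17 was lower in SEG than in the cells named for that factor, at both days. Against Erg at day 3, Notch1, Notch4, Dll4 and Jag1 were higher and Dll1 and Jag2 lower (51.0% of all genes were called, 25.7% higher and 25.3% lower), while Notch2 and Notch3 were not called (0.02 ± 0.30 and -0.06 ± 0.33, edgeR adjusted p = 0.971 and 0.907). At day 7 all 8 were called, 6 higher and 2 lower (49.4% of all genes, 24.7% higher and 24.8% lower), the lower being again Dll1 and Jag2. The call of Notch2 there (0.98 ± 0.30, edgeR adjusted p = 0.0102) was lost without Erg replicate 3 or SEG replicate 3, with adjusted p of 0.0507 and 0.0525. Against Sox17 at day 3, 6 genes were higher and none lower (28.3% of all genes, 14.0% higher and 14.2% lower), with Notch2 and Jag2 not called by edgeR (0.20 ± 0.30 and 0.73 ± 0.35, adjusted p = 0.701 and 0.142). The call of Dll1 at day 3 (1.69 ± 0.51, edgeR adjusted p = 0.0163) was lost without Sox17 replicate 2, SEG replicate 1 or SEG replicate 2, with adjusted p of 0.0918, 0.0634 and 0.0506, and Jag2 was called by DESeq2 (0.74, adjusted p = 0.0165). At day 7 all 8 were higher in SEG than in Sox17 (39.9% of all genes were called, 18.8% higher and 21.2% lower), by 0.66 ± 0.08 for Notch4 up to 8.60 ± 0.32 for Dll4. The day 7 call of Notch2 (0.84 ± 0.30, edgeR adjusted p = 0.0304) was lost without Sox17 replicate 1, SEG replicate 2 or SEG replicate 3, with adjusted p of 0.0738, 0.122 and 0.131. Dll1 (1.48 ± 0.40, edgeR adjusted p = 0.00638) was lost without SEG replicate 2 (1.17, edgeR adjusted p = 0.0561). With only the SEG and Sox17 libraries of day 7 in the fit, Notch1, Notch2 and Dll1 were not called (edgeR adjusted p = 0.114, 0.347 and 0.134). With the replicate number added as a block to that fit, Notch1 and Notch2 were called (1.07 and 0.91, edgeR adjusted p = 0.00353 and 0.0096) and Dll1 was not (1.44, edgeR adjusted p = 0.108). Replicate 1 of both groups is a library that stood apart, so the block cannot be told apart from these libraries.

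Sox17 and Erg alone differed from each other in opposite senses for several members. At day 3 Sox17 cells held more Notch4 and Jag1 and less Notch3, Dll1, Dll4 and Jag2 than Erg cells (55.3% of all genes were called, 28.4% higher and 26.8% lower). Notch4 differed by 1.71 ± 0.08, Jag1 by 1.11 ± 0.22, Dll1 by -5.53 ± 0.39 and Jag2 by -7.48 ± 0.32 (edgeR's quasi-likelihood test, adjusted p from 1.02e-13 to 0.000307). At day 7, 4 genes were higher and 3 lower in Sox17 (55.0% of all genes, 29.1% higher and 25.9% lower), and Dll4, lower in Sox17 at day 3 (-2.13 ± 0.47), was higher at day 7 (1.63 ± 0.47, edgeR adjusted p = 0.00586). Dll4 was at most 1.13 CPM in these libraries, and its day 7 call was lost without Erg replicate 3 (1.13, edgeR adjusted p = 0.0651). The Dll4 difference was 2.54 without Erg replicate 1 at day 7 and -2.88 without Sox17 replicate 1 at day 3 (edgeR adjusted p = 0.000665 and 0.000369). The day 7 call of Notch1 (0.63 ± 0.22, edgeR adjusted p = 0.0194) was lost without Erg replicate 1 or 3 or Sox17 replicate 2 or 3, with adjusted p from 0.0518 to 0.13. With both libraries that stood apart left out, Notch2 was higher in Sox17 than in Erg at day 7 (0.50, edgeR adjusted p = 0.00127). With only these groups in the fit, Notch1, Notch3, Dll4 and Jag1 were not called at day 7 (edgeR adjusted p = 0.187, 0.179, 0.0752 and 0.098).

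The change in SEG cells was also set against the sum of the log2 changes in Erg and in Sox17 cells. The part that the lower mean levels of Erg and Sox17 in SEG have in these differences was not tested. Jag2 fell furthest below the sum: the summed change was 11.46 at day 3 and 15.00 at day 7, the SEG change 2.72 and 6.58, and the difference -8.74 ± 0.57 and -8.43 ± 0.46 (edgeR's quasi-likelihood test, adjusted p = 3.74e-10 and 2.60e-11). Without control replicate 2 of the day the difference was -11.23 at day 3 and -9.11 at day 7 (edgeR adjusted p = 4.14e-11 and 3.78e-10). Dll4 lay furthest above it, with a summed change of 4.73 and 4.43, a SEG change of 10.42 and 11.63 and a difference of 5.70 ± 1.41 and 7.19 ± 1.37 (edgeR adjusted p = 0.00327 and 0.000238). The Dll4 difference at day 3 was not called without control replicate 2, which held 3 of the 4 control counts (4.47, edgeR adjusted p = 0.202). At day 7 it was 6.54 without control replicate 2 and 8.10 without Erg replicate 1 (edgeR adjusted p = 0.0154 and 4.94e-05), and at day 3 6.45 without Sox17 replicate 1 (edgeR adjusted p = 0.00152). Notch4 lay above the sum by 1.69 ± 0.11 at day 3 and by 0.38 ± 0.11 at day 7 (edgeR adjusted p = 3.14e-10 and 0.00677). Notch2, lower than control in both single conditions, lay above the sum by 1.11 ± 0.42 at day 3 and 2.20 ± 0.42 at day 7 (edgeR adjusted p = 0.0454 and 0.000282). The day 3 call of Notch2 was lost with another scaling, with no filter on low counts, or without any single library of that day other than SEG replicate 2, with adjusted p from 0.0513 to 0.1. At day 7 Notch1 and Jag1 also lay above the sum, by 1.01 ± 0.31 and 1.56 ± 0.32 (edgeR adjusted p = 0.0113 and 0.000449). Over the 8 genes, 3 lay above the sum and 1 below it at day 3 (36.0% of all genes were called, 18.2% above and 17.8% below). At day 7, 5 lay above and 1 below it (48.8% of all genes, 23.8% above and 25.0% below). Dll1 and Notch3 were called at neither day. Without both libraries that stood apart Notch3 lay above the sum at day 7 (0.67, edgeR adjusted p = 0.00626), and without Sox17 replicate 3 alone both Notch3 and Dll1 did (1.24 and 1.17, edgeR adjusted p = 0.0321 and 0.046).

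**Figure D3:**
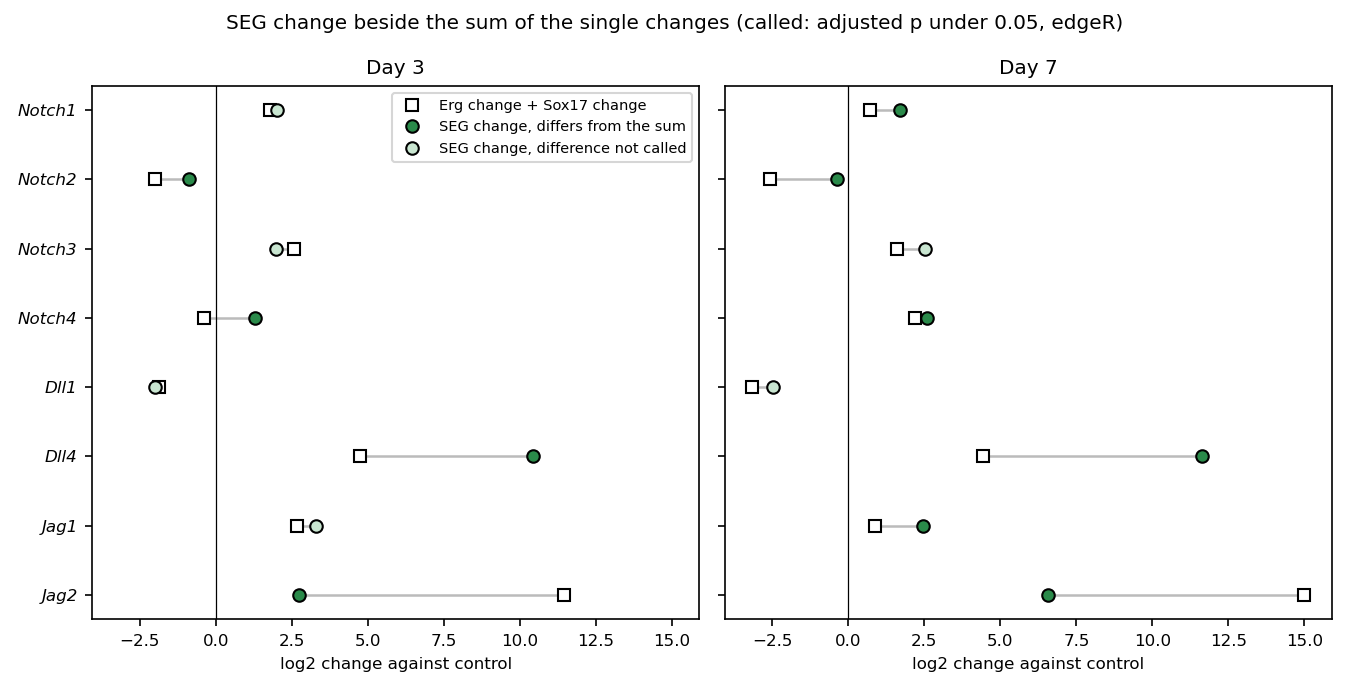
Log2 change of each gene in SEG cells against control (circles) and the sum of its log2 changes in Erg and Sox17 cells (squares) at day 3 (left) and day 7 (right); dark circles differ from the sum at an adjusted p under 0.05. The longest bars belong to Dll4, where SEG exceeds the sum, and to Jag2, where the sum of 11.46 and 15.00 stands against 2.72 and 6.58 in SEG.

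Levels of different genes were compared as CPM per kilobase of merged exons. Among the receptors, control cells at day 3 held mostly Notch2 and Notch4, with 41.3% ± 1.31 and 40.5% ± 1.23 of the summed receptor level, and at day 7 mostly Notch2, with 49.3% ± 1.55 (SD, n = 3). In Erg cells Notch3 had the largest share, 41.5% at day 3 and 42.9% at day 7. In Sox17 cells it was Notch4, with 56.0% and 57.3%, and in SEG cells also Notch4, with 51.1% and 41.3%, ahead of Notch3 with 19.7% and 32.5%. The summed receptor level was 41.5 ± 0.497 and 34.7 ± 2.51 CPM per kilobase in control and 80.6 ± 5.49 and 105 ± 17.5 in SEG, whose libraries lay above all others. It was 39.8 ± 0.313 and 35.1 ± 5.97 in Erg and 47.3 ± 0.798 and 48.4 ± 10.9 in Sox17.

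The summed ligand level was 8.82 ± 0.293 CPM per kilobase in control at day 3 and 15.7 ± 1.40 at day 7. It was 34.0 and 29.9 in Erg, 31.5 and 29.4 in Sox17, and 110 ± 1.86 and 153 ± 16.9 in SEG. Every Erg, Sox17 and SEG library lay above the control libraries of its day, except Sox17 replicate 1 at day 7. Jag1 made up 96.1% and 94.9% of the ligand level in control and 99.5% and 94.0% in Sox17. Erg cells divided it between Jag2, with 53.3% at day 3 and 45.9% at day 7, and Jag1, with 42.9% and 49.4%. SEG cells divided it between Jag1, with 75.6% and 53.0%, and Dll4, with 24.1% and 45.4%. Dll1 never exceeded 5.46% in a library. In order of level per length at day 7 in SEG cells, Jag1 (81.6 ± 16.8 CPM per kilobase) and Dll4 (68.8 ± 0.879) overlapped and stood above Notch4 (42.3 ± 0.756) and Notch3 (34.5 ± 9.56), with Notch1 (14.7) and Notch2 (13.2) overlapping below them and Jag2 (2.22) and Dll1 (0.134) last. With the length of the longest transcript in place of merged exons the order was the same in that group and differed in the other 7, so that Notch4 rather than Notch2 led the receptors in control at day 3 and Jag2 rather than Jag1 the ligands in Erg at day 7. In SEG at day 3, Notch3 and Notch1 overlapped in level per kilobase of merged exons. By the longest transcript Notch1 was ahead there, at 21.6 against 16.1 CPM per kilobase.

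**Figure D4:**
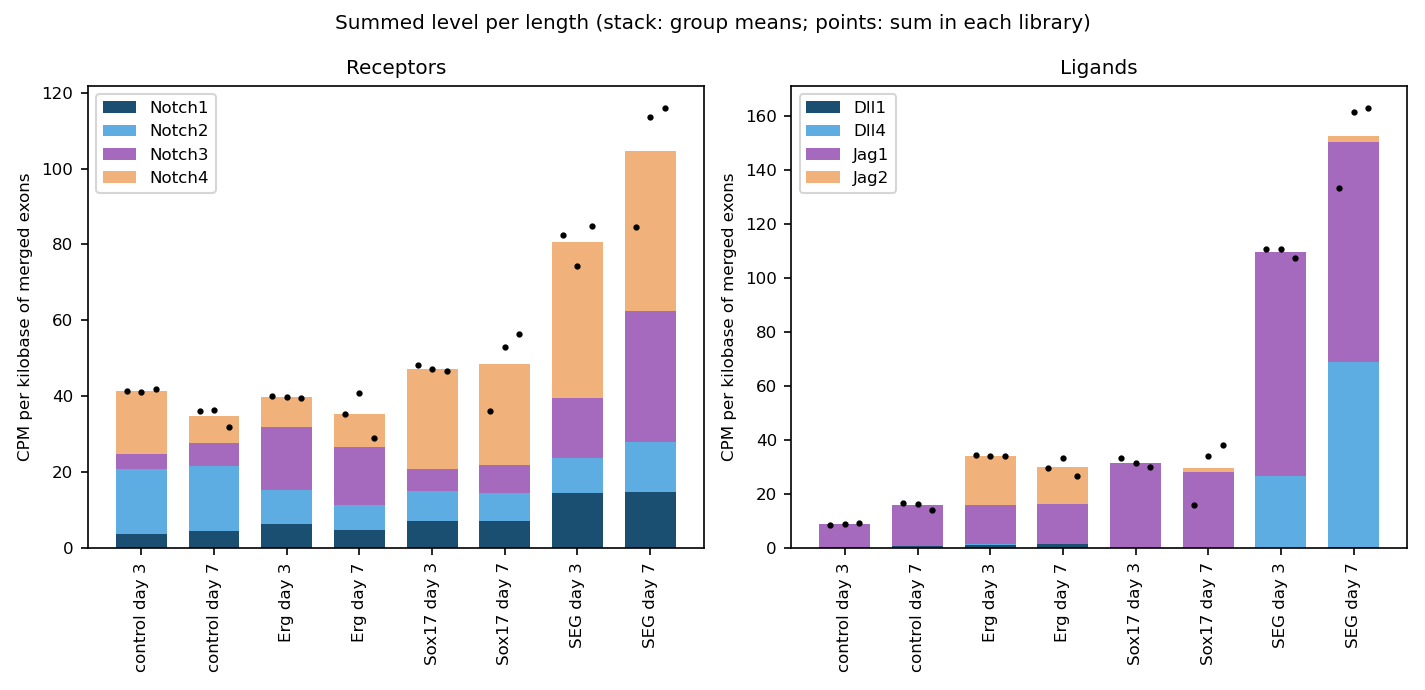
Summed level of the 4 receptors (left) and the 4 ligands (right) in CPM per kilobase of merged exons, by condition and day; stacked bars are group means and points the sum in each library. The day 3 ligand bar stands at 8.82 in control and 110 in SEG, the day 7 bar at 15.7 and 153, with Dll4 as a visible layer in SEG and Jag2 in Erg.

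Levels at day 7 were compared with those at day 3 within each condition. In control cells Notch4 fell by 1.24 ± 0.08 and Dll1 and Jag1 rose by 1.31 ± 0.30 and 0.82 ± 0.23 (edgeR's quasi-likelihood test, adjusted p = 3.03e-10, 0.00201 and 0.0091; 29.5% of all genes were called, 16.1% higher and 13.4% lower). In Erg cells Dll4, already rare, fell by 1.85 ± 0.48 (edgeR adjusted p = 0.00606; 30.0% of all genes, 15.6% higher and 14.4% lower), a call that was lost without Erg day 7 replicate 3 (-1.35, edgeR adjusted p = 0.0601) and was -2.76 without Erg day 7 replicate 1 (edgeR adjusted p = 0.000983). In Sox17 cells Jag2 rose by 3.69 ± 0.30 and Dll4 by 1.91 ± 0.45 (edgeR adjusted p = 2.55e-08 and 0.00354; 29.5% of all genes, 16.6% higher and 12.9% lower), the latter being 2.66 without Sox17 day 3 replicate 1. In SEG cells Jag2 rose by 3.73 ± 0.29, Dll4 by 1.38 ± 0.22 and Notch3 by 1.12 ± 0.34 (edgeR adjusted p = 9.18e-09, 6.15e-05 and 0.0177; 27.2% of all genes, 14.3% higher and 12.9% lower). The rise of Notch3 was not called without SEG day 3 replicate 2 or SEG day 7 replicate 2 or 3, with adjusted p from 0.0605 to 0.0735. Without both libraries that stood apart, Notch2 also rose in SEG (0.82, edgeR adjusted p = 9.61e-06), and Notch1 rose in SEG (0.26, edgeR adjusted p = 0.0457) and in Sox17 (0.32, edgeR adjusted p = 0.0196), as did Notch3 in Sox17 (0.76, edgeR adjusted p = 0.000161). Jag1, the most abundant ligand of SEG cells, showed -0.02 ± 0.22 between days there (edgeR adjusted p = 0.964).

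Whether an effect against control differed between days was tested directly. Notch4 shifted upward in each condition, by 1.34 ± 0.11 for Erg (19.7% of all genes were called, 9.34% higher and 10.4% lower), 1.25 ± 0.11 for Sox17 (14.3%, 7.61% higher and 6.66% lower) and 1.28 ± 0.11 for SEG (11.9%, 6.09% higher and 5.77% lower), with adjusted p from 4.05e-08 to 1.48e-07 in edgeR's quasi-likelihood test. These tests share the control libraries, where Notch4 fell with time, while its change between days was 0.10 ± 0.08 in Erg, 0.01 ± 0.08 in Sox17 and 0.04 ± 0.08 in SEG cells. The Jag2 effect rose by 3.82 ± 0.91 for Sox17 and 3.86 ± 0.91 for SEG (edgeR adjusted p = 0.00671 and 0.0068). Both were lost without control day 3 replicate 2, which held 9 of the 10 control counts of Jag2 at that day (1.32 and 1.36, edgeR adjusted p = 0.706 and 0.814), and they were 4.50 and 4.54 without control day 7 replicate 2, whereas the rise within Sox17 and SEG cells does not involve control libraries. The Jag1 effect of Sox17 fell by 0.99 ± 0.32 (edgeR adjusted p = 0.042), and this call was lost without any one of the control or Sox17 day 3 libraries or control day 7 replicate 1 or 2, with adjusted p from 0.0567 to 0.0894. With both libraries that stood apart left out, the SEG effect on Notch2 and Notch3 shifted upward (0.83 and 0.80, edgeR adjusted p = 0.000561 and 0.0036) and that on Jag1 downward (-0.64, edgeR adjusted p = 0.00113).

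The other genes of the Notch pathway were read from 7 lists that hold 57 genes, of which 56 passed the filter. Against control at day 3, 18 were higher and 13 lower in Erg, 14 and 7 in Sox17, and 15 and 14 in SEG. At day 7 the counts were 16 and 15 in Erg, 20 and 11 in Sox17, and 17 and 11 in SEG. The percentages of all genes called in these comparisons are those given above. The median log2 change of the 56 genes lay between -0.08 and 0.14, beside -0.02 to 0.05 for all genes tested. Without both libraries that stood apart, an alternative chosen after seeing the data, the day 7 counts were 21 higher and 12 lower in Sox17, where 4 calls were lost and 6 gained, and 27 and 13 in SEG, where 1 was lost and 13 gained. Among the genes named below, Myc and Bend6 were then not called in Sox17 (-0.09 and -0.26, edgeR adjusted p = 0.275 and 0.202) nor Pofut1 in SEG (-0.12, edgeR adjusted p = 0.0622). Hes1 was then called lower in Sox17 and SEG (-0.60 and -0.35), Ccn3, Mib1 and Myc higher in SEG (0.40, 0.46 and 0.17), Furin higher in Sox17 (0.25), and Maml3 higher in Sox17 and lower in SEG (0.65 and -0.37), with edgeR adjusted p from 5.77e-06 to 0.0488. Rbpj and Adam17 stayed lower in both, Rbpj by -0.46 in Sox17 and -0.41 in SEG and Adam17 by -0.99 and -0.56, and Kat2b stayed lower in Sox17 (-0.22, edgeR adjusted p = 0.0391).

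The targets of Notch signalling were the list with the largest medians. Of 8 targets (Hes1, Hes5, Hey1, Hey2, Heyl, Nrarp, Efnb2 and Myc), 5 rose and 1 fell in Erg and in Sox17 at day 3, and 6 rose and 1 fell in SEG. At day 7, 4 rose and 1 fell in Erg, 6 and 1 in Sox17, and 6 and 0 in SEG. Of all genes, 46.1%, 40.4% and 40.2% were called in Erg, Sox17 and SEG at day 3 and 48.5%, 54.5% and 44.3% at day 7. With Hes5 taken at the bound of 3 counts over the control group, where it had none, the medians were 1.74, 2.51 and 3.44 at day 3 and 1.08, 1.49 and 4.02 at day 7 in Erg, Sox17 and SEG, the median of Sox17 at day 3 leaving Hes5 out. Hey1, a repressor of the HEY family that acts downstream of Notch in vessels, averaged 0.633 CPM in control at day 3 and rose by 2.78 ± 0.23 in Erg, 4.81 ± 0.21 in Sox17 and 5.98 ± 0.22 in SEG (edgeR's quasi-likelihood test, adjusted p from 1.82e-14 to 4.40e-09). At day 7 its level was 173 ± 4.19 CPM in SEG and 44.3 ± 2.86 in Sox17. Hey2, a close relative, rose in all 3 conditions at both days and reached 13.9 ± 2.10 CPM in SEG at day 7, beside 0.891 ± 0.230 in control. Heyl, the HEY member known from mural cells, stood at 112 ± 9.22 and 141 ± 6.77 CPM in SEG, beside 14.8 and 11.1 in control. Nrarp, a feedback inhibitor of Notch, had 3 counts in control at each day and 492 and 1353 in SEG, a ratio of 130 (exact 95% interval 44.2 to 632) and 409 (140 to 1980). Hes1, a repressor expressed in many cell types, went the other way at day 3: it fell by 1.46 ± 0.16 in Sox17 and by 0.63 ± 0.16 in SEG (edgeR adjusted p = 2.98e-07 and 0.00313) and did not pass the test in Erg (0.04 ± 0.16, adjusted p = 0.88) or in any condition at day 7 (-0.33 to -0.25). Efnb2, the ephrin of arterial endothelium, rose in Sox17 and SEG at both days, to 226 ± 7.16 and 283 ± 22.1 CPM at day 3 from 18.1 ± 3.13 in control, and was not called in Erg (0.03 ± 0.23, edgeR adjusted p = 0.925 at day 3). Myc rose in SEG at day 3 (0.98 ± 0.12, edgeR adjusted p = 2.01e-06) and fell in Erg at day 3 and day 7 (-0.37 ± 0.12 and -0.79 ± 0.13, edgeR adjusted p = 0.0192 and 3.17e-05) and in Sox17 at day 7 (-0.32 ± 0.12, edgeR adjusted p = 0.0354).

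Of 9 other ligands and decoys, 8 were tested. At day 3, 2 rose and 1 fell in Erg, 4 rose in Sox17, and 3 rose and 3 fell in SEG. Of all genes, 46.1%, 40.4% and 40.2% were called in these comparisons. At day 7, 3 rose and 1 fell in Erg, 6 rose in Sox17 and 2 rose in SEG, beside 48.5%, 54.5% and 44.3% of all genes called. Egfl7, a secreted protein of endothelium that can bind Notch, was found in SEG at 29.4 ± 2.27 CPM on day 3 and 47.4 ± 12.4 CPM on day 7, beside 4.68 and 2.50 in control (2.65 ± 0.29 and 4.24 ± 0.31, edgeR's quasi-likelihood test, adjusted p = 2.38e-07 and 5.41e-10). It also rose in Erg at both days (1.12 ± 0.28 and 1.63 ± 0.30) and in Sox17 at day 7 (1.08 ± 0.30, edgeR adjusted p from 0.000149 to 0.00462), the last being 0.49 without both libraries that stood apart. Ccn3, a matricellular protein, was the most abundant of them in Sox17 cells at 767 ± 57.4 and 1990 ± 537 CPM, and stood at 11.8 and 15.0 CPM in SEG and 20.8 and 12.5 in control. It was lower than control in SEG at day 3 (-0.82 ± 0.16) and higher in Erg at day 7 (0.56 ± 0.16, edgeR adjusted p = 0.000435 and 0.00818). Dlk2, an atypical ligand without the receptor-activating domain, rose in Erg by 2.70 ± 0.31 at day 3 and 4.79 ± 0.31 at day 7 and in Sox17 by 2.78 ± 0.32 at day 7, and was lower in SEG at day 3 (-1.26 ± 0.43, edgeR adjusted p from 1.86e-10 to 0.0224). Mfap2, a microfibril protein, rose in Sox17 at both days (1.29 ± 0.22 and 1.23 ± 0.22) and in SEG at day 3 (1.0 ± 0.22) and fell in Erg at both days (-0.61 ± 0.23 and -2.01 ± 0.23, edgeR adjusted p from 6.36e-07 to 0.0354). Mfap5 rose at both days in Sox17 (1.12 ± 0.19 and 1.48 ± 0.19) and in SEG (0.89 ± 0.19 and 1.49 ± 0.19, edgeR adjusted p from 1.58e-06 to 0.000607).

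The Fringe enzymes were represented mainly by Lfng and Rfng. Lfng rose in Erg at both days (0.79 ± 0.13 and 1.95 ± 0.14), in SEG at both days (0.44 ± 0.13 and 1.28 ± 0.14) and in Sox17 at day 7 (1.24 ± 0.14, edgeR's quasi-likelihood test, adjusted p from 5.17e-10 to 0.0128). Its level in control fell from 10.1 CPM at day 3 to 6.42 CPM at day 7. Rfng lay between 19.7 and 29.7 CPM in all group means, and Mfng was below 0.5 CPM in every group mean. Of the receptor maturation genes, Poglut1 was higher in Erg at day 3 (0.46 ± 0.06) and lower in Sox17 at both days (-0.23 ± 0.06 and -0.26 ± 0.06, edgeR adjusted p from 6.47e-06 to 0.00808). Pofut1 was lower at both days in Sox17 (-0.29 ± 0.07 and -0.59 ± 0.07) and in SEG (-0.21 ± 0.07 at each day, edgeR adjusted p from 2.60e-07 to 0.0175). Furin was higher in SEG at both days (0.38 ± 0.11 and 0.64 ± 0.11) and in Erg at day 3 (0.37 ± 0.11, edgeR adjusted p from 4.68e-05 to 0.008).

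Among the genes that cut the receptor, Aph1b, a subunit of gamma-secretase, rose in every comparison against control, from 23.6 ± 1.88 CPM in control at day 3 to 52.0 ± 3.49 in Erg, 96.7 ± 10.4 in Sox17 and 136 ± 10 in SEG. Adam17, a protease of the cell surface, was lower at day 3 in Erg and Sox17 (-0.61 ± 0.16 and -0.62 ± 0.16) and at day 7 in Erg, Sox17 and SEG (-0.92 ± 0.16, -1.27 ± 0.16 and -0.70 ± 0.16, edgeR's quasi-likelihood test, adjusted p from 1.30e-06 to 0.00359). Ncstn, another subunit of gamma-secretase, fell in Erg at both days (-0.80 ± 0.14 and -0.89 ± 0.14) and in Sox17 at day 7 (-0.68 ± 0.13, edgeR adjusted p from 1.72e-05 to 0.000249). Psen2, one of its catalytic subunits, was lower at both days in Sox17 (-0.51 ± 0.15 and -0.46 ± 0.15) and in SEG (-0.54 ± 0.15 and -0.41 ± 0.15) and higher in Erg at day 7 (0.46 ± 0.15, edgeR adjusted p from 0.00673 to 0.0334). Among genes that act on the ligand in the sending cell, Epn2, an endocytic adaptor, was lower in every comparison against control, with changes at day 3 and day 7 of -0.48 ± 0.08 and -0.65 ± 0.08 in Erg, -1.16 ± 0.08 and -1.44 ± 0.08 in Sox17, and -0.47 ± 0.08 and -0.57 ± 0.08 in SEG (edgeR adjusted p from 9.90e-12 to 7.27e-05). Its paralog Epn1 was lower in Erg (-0.86 ± 0.13 and -0.51 ± 0.13) and higher in Sox17 (0.34 ± 0.13 and 0.73 ± 0.13) at day 3 and day 7 (edgeR adjusted p from 1.77e-05 to 0.0462). The ubiquitin ligase Mib1 rose in SEG at day 3 (0.68 ± 0.24, edgeR adjusted p = 0.0289), Mib2 fell there at day 7 (-0.37 ± 0.13, edgeR adjusted p = 0.0315), Neurl1a rose in Erg at both days (1.53 ± 0.29 and 2.44 ± 0.29), and Neurl1b fell in Sox17 and SEG at day 3 (-1.72 ± 0.14 and -0.71 ± 0.14) and rose in Erg at day 7 (0.66 ± 0.14).

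Rbpj, the DNA-binding partner of all 4 receptors, averaged 92.4 ± 9.23 and 94.6 ± 3.34 CPM in control. It fell in Erg (-0.72 ± 0.19 and -0.68 ± 0.19) and SEG (-0.52 ± 0.19 and -0.60 ± 0.19) at both days and in Sox17 at day 7 (-0.77 ± 0.19), with adjusted p from 0.00213 to 0.0367 in edgeR's quasi-likelihood test. In Sox17 at day 3 the value was -0.27 ± 0.19 (edgeR adjusted p = 0.3). Of the coactivators, Maml3 was lower in Erg at both days (-1.39 ± 0.31 and -1.79 ± 0.32) and Maml2 at both days in Erg (-0.71 ± 0.23 and -1.14 ± 0.23) and in SEG (-0.60 ± 0.23 and -0.92 ± 0.23). Kat2b rose in Erg at day 3 (1.0 ± 0.24) and fell in Sox17 at day 7 (-0.60 ± 0.24), and Bend6 fell in SEG at both days (-0.60 ± 0.23 and -0.79 ± 0.24) and in Sox17 at day 7 (-0.59 ± 0.23), with edgeR adjusted p from 9.80e-05 to 0.0453 over these genes. Of the genes that limit or turn over the receptor, Dtx1, an E3 ligase that binds Notch, rose in Erg from 0.103 to 8.64 ± 0.991 CPM at day 3, and from 0.437 to 6.74 ± 0.796 in Erg and 5.16 ± 0.668 in Sox17 at day 7. It was also called higher in Sox17 at day 3 and in SEG at day 7 (1.99 ± 0.53 and 1.03 ± 0.36, edgeR adjusted p = 0.00453 and 0.0255). Its relative Dtx4 rose in Sox17 at both days (1.70 ± 0.08 and 0.29 ± 0.07) and fell at both days in SEG (-0.73 ± 0.08 and -1.96 ± 0.08) and in Erg (-0.85 ± 0.08 and -1.83 ± 0.08, edgeR adjusted p from 3.76e-14 to 0.00237). Numbl fell at both days in Erg (-0.98 ± 0.09 and -0.71 ± 0.09) and in SEG (-0.53 ± 0.09 and -0.30 ± 0.09, edgeR adjusted p from 2.92e-08 to 0.0112). Fbxw7, which marks the receptor fragment for degradation, rose in all 3 conditions at both days, by 0.31 ± 0.10 in SEG at day 3 up to 0.75 ± 0.10 in Erg and SEG at day 7 (edgeR adjusted p from 4.73e-06 to 0.0232).

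Markers of other cell types were read beside these genes. Of the 9 mural and smooth muscle markers, 5 to 8 exceeded 1 CPM in each group. Their summed level was 1650 to 1710 CPM in control at day 3, where Notch3 was lowest, and 884 to 962 CPM at day 7. It was 1270 to 1320 and 827 to 879 in Erg, 2050 to 2890 and 2720 to 4520 in Sox17, and 1430 to 1720 and 1920 to 2270 in SEG. Within the list, Cspg4, a pericyte proteoglycan, was at 34.6 ± 5.45 and 91.2 ± 5.66 CPM in SEG and at most 8.86 CPM elsewhere, Kcnj8 had no count in either Sox17 group or in SEG at day 3, and Pdgfrb was lower in SEG, at 362 and 378 CPM, than in control, at 1150 and 819. Acta2 averaged 1420 and 2200 CPM in Sox17, 703 and 1120 in SEG and 140 and 233 in Erg, beside 282 and 64.8 in control. Tagln averaged 852 and 899 CPM in Sox17, 427 and 472 in SEG and 415 and 267 in Erg, beside 232 and 26.2 in control. Myh11 stood at 4.97 and 6.46 CPM in Erg and at 9.53 CPM in SEG at day 7, beside 0.398 and 0.213 in control. The 9 macrophage markers summed to 317 to 324 CPM in Erg at day 7 and to 26.1 to 112 CPM in all other libraries, so their sum moves with the Erg effect at day 7. C1qa and C1qb averaged 92.8 and 102 CPM in that group. Cd14 went the other way, with 2.63 CPM there and 3.99 CPM in control at day 7. Schwann cell markers summed to 208 to 248 CPM and 111 to 163 CPM in Sox17 with Sox10 at or near 0, and cardiomyocyte markers, of which 1 or 2 of 7 exceeded 1 CPM, were highest in control at day 7 with 75.3 to 94.5 CPM. The part of these markers in the results was not tested.

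The genes whose 8 group means of log2 CPM ran most like those of a member were named, 3 per member, among 8333 genes that varied by at least 1 on the log2 scale. For Dll4 these were Atp13a5, Camk4 and Efna1 (Pearson r from 0.981 to 0.987 over 8 group means), of which Efna1, an ephrin, rose from 2.13 CPM in control at day 3 to 26.1 and 85.2 CPM in SEG. For Jag2 they were Rassf3, Rph3al and Gja3 (0.977 to 0.987), and Gja3, a connexin, stood at 8.91 and 9.74 CPM in Erg and at most 1.84 CPM elsewhere. For Notch1 they were Sox13, Dock6 and Gpr31b, for Notch2 Vmn1r201, Nrip2 and Zfp993, for Notch3 Tec, Elovl7 and Robo4, and for Notch4 Stx1a, Rapgef4 and Tmtc4. For Dll1 they were Serpina3g, Plod1 and Casp1, and for Jag1 Hmcn1, Cd200 and Krt79. Several of the named genes were rare. Vmn1r201, Gpr31b, Krt79 and Atp13a5 had group means of at most 0.509, 0.888, 0.655 and 1.11 CPM, so their patterns rest on few counts. Among the members, Notch1 and Jag1 ran most alike by Pearson r (0.98), followed by Notch1 and Dll4 (0.94), and Notch4 and Dll1 ran most opposite (-0.86). By Spearman rank correlation, Notch3 and Dll4 ran most alike (0.93), Notch1 and Jag1 stood at 0.90, Notch1 and Dll4 at 0.81, and Notch4 and Dll1 at -0.67. All these values describe 8 groups that share libraries, depth and the same few conditions, and only 6 of the 24 named genes were named again when the 24 libraries were used in place of group means.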

How the data were processed

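RNA from 24 libraries of mouse heart cells was sequenced. The table holds raw counts per gene as the authors deposited them, whole numbers that differ in total between libraries. The submitters' processing notes name Salmon, DESeq2 and mm10. Not given in the sources used here: their versions, the annotation release, the strand setting and how estimates became whole numbers. The members and gene lists were chosen with earlier results of these data known. Groups came from the sample labels, with 3 libraries each, and no column was left unmapped.

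Counts were filtered with filterByExpr (minimum count 10, 14804 genes kept), scaled by TMM and fitted with edgeR 4.0.16 in R 4.3.3: 1 mean for each of 8 groups, quasi-likelihood tests of 21 comparisons, Benjamini-Hochberg adjusted p under 0.05 over all genes tested. The fit was tested on simulated data. Genes named besides the members were, in each of the 7 lists, up to 2 called genes with the largest change in each comparison against control, at 5 CPM or more in the higher group, plus Hey1, Hey2, Hes1, Heyl, Nrarp, Rbpj, Lfng, Mfng and Rfng. Genes of like pattern were the 3 with the highest Pearson correlation over 8 group means (prior count 2). Markers were singled out after their values were seen. Exact 95% intervals and the floor of 3 counts cover counting error only. No pair of libraries of a group agreed within sampling noise: chi-square per degree of freedom was 2.88 or more. Same-numbered libraries deviated together, with each correlation over 0.1, in 1 of 28 pairs of groups, Sox17 and SEG at day 7. In both of these groups replicate 1 was the library that stood apart, so paired replicates and these libraries cannot be told apart. Promoter sequences came from RefSeq (GRCm38.p6). Alternatives were DESeq2 1.42.0, its size factors (RLE), no filter, only the groups compared, a replicate block, leaving out each library, and leaving out both libraries that stood apart.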

Additional observations from a re-analysis of the deposited data

Results flagged for a closer look

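The effect of a condition against control differed between day 3 and day 7 for 3 genes, by a direct test of that difference in edgeR's quasi-likelihood fit. Notch4 differed for Erg (1.34, adjusted p = 4.05e-08), Sox17 (1.25, adjusted p = 1.48e-07) and SEG (1.28, adjusted p = 9.56e-08). All of these use the same 6 control libraries, in which Notch4 fell from 135 ± 5.13 to 57.3 ± 6.06 CPM (SD, n = 3). Jag2 differed for Sox17 (3.82, adjusted p = 0.00671) and SEG (3.86, adjusted p = 0.0068). Without control day 3 replicate 2 these became 1.32 (adjusted p = 0.706) and 1.36 (adjusted p = 0.814). Jag1 differed for Sox17 (-0.99, adjusted p = 0.042), and its values in Sox17 at day 7 include the library that stood apart, at 84.2 CPM against 191 and 212 CPM. This call was kept without both libraries that stood apart. It was lost with no filter (-0.96, adjusted p = 0.0601) and with only the groups compared (-1.02, adjusted p = 0.127). Leaving out any one control or Sox17 day 3 library, or control day 7 replicate 1 or 2, also lost it (adjusted p from 0.0567 to 0.0894).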

How the results depend on the processing

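None of the 8 genes changed sign while called under any alternative run. With DESeq2, 165 of the 168 tests of the 8 genes kept their call and 3 were gained, and the number of the 8 called became 2 for Erg between days and 2 for the change of the Erg effect. With RLE size factors 1 call was lost, with no filter 2. The replicate block over all 24 libraries changed none of the 168 calls. For SEG against Sox17 at day 7, where 5910 genes were called, a fit of these 2 groups alone called 2174, and with the block added, an alternative chosen after seeing the data, 3881. The first did not call Notch1, Notch2 and Dll1, the second called all of the 8 but Dll1. The block cannot be told apart here from the libraries that stood apart, which are replicate 1 of both groups.

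With only the groups compared in the fit, the number of the 8 genes called and the genes called in all were 7 and 8265 for SEG against the summed effects at day 3, 4 and 4314 for Sox17 against control at day 7, 5 and 2174 for SEG against Sox17 at day 7, and 3 and 4773 for Sox17 against Erg at day 7. Between days they were 5 and 7856 in control, 4 and 7058 in Erg and 1 and 857 in Sox17. For the change of effects they were 6 and 6442 for Erg and 1 and 1129 for Sox17. SEG against Sox17 at day 3 called 6570 genes, and the change of the SEG effect 2746. The cause was not tested. In this setting Jag2 was not called for the change of the Sox17 effect (adjusted p = 0.0827), nor Dll4 between days in Sox17 (0.0937), nor Notch1 and Notch4 against the sum at day 7 (0.0924 and 0.0788), all by edgeR.

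Without both libraries that stood apart, 4 of the 8 genes were called between days in Sox17, 5 between days in SEG (6761 genes in all) and 5 for the change of the SEG effect (3774 genes), and 3695 genes for the change of the Sox17 effect. Leaving out each library in turn gave 2 to 4 of the 8 genes for SEG against the summed effects at day 3, 0 to 1 for Erg between days, 1 to 3 for the change of the Sox17 effect (1592 to 3199 genes) and 1 to 2 for the change of the SEG effect. Of the 24 genes of like pattern, 19 were named again with a prior count of 0.5, 6 over the 24 libraries and 13 without the libraries that stood apart. Depth limits Dll1, Dll4 and Jag2, whose control groups held 4 to 203 counts.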
